A study of Mus musculus with 28 samples.

Results

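Levels of 10 genes for cell adhesion molecules were described in sorted cells of the embryonic mouse vertebral column. They were 3 classical and type II cadherins (Cdh2, Cdh4 and Cdh11), 2 protocadherins (Pcdh8 and Pcdh19), 3 adhesion molecules of the immunoglobulin superfamily (Alcam, Nrcam and Ncam1), the astrotactin Astn1 and the integrin subunit Itga6. The members were found by the gene symbol that the platform annotation gives to each probe of the Illumina MouseWG-6 array, and they make up 10 of the 19057 genes it names. They have 26 probes, of which 24 passed the detection filter, and each of the 10 genes kept at least 1 probe among the 13373 genes tested.

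The study asked what the transcription factors Pax1 and Pax9 control in the early intervertebral disc, by comparing transcripts of cells that carry an EGFP reporter at the Pax1 or Pax9 locus. Vertebral columns were dissected from E12.5 (embryonic day) mouse embryos and dissociated, the cells were separated by fluorescence-activated sorting with gates set on wild-type embryos, and the RNA was amplified before hybridisation. Each replicate came from a pair of columns. In all, 28 arrays on 5 chips gave 24 replicates. Replicates keep the names of the labels (B1, B2 and so on), and values of a group are given in that order, in which the WT replicates are B2, B3, B4, B5 and B7.

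The EGFP(+) cells came from Pax1-/-Pax9-/- embryos (n = 3), Pax1-/-Pax9+/- embryos (n = 3), Pax1-/- embryos (n = 5), Pax1+/- embryos (n = 5) and wild-type (WT) embryos (n = 5), and EGFP(-) cells were the remaining group (n = 3). WT cells carried EGFP joined behind an intact Pax1 by a 2A peptide, and the mutant alleles carried EGFP in place of a working paired box of Pax1 or Pax9. All embryos had a hybrid background of 129Sv, C57BL/6, 129X1 and 129S1 strains. The genotype of the EGFP(-) cells is not in the labels. A mutant allele may still give transcript, so the probes of Pax1 and Pax9 do not check the knockout: the log2 level of Pax1 was 10.52 to 10.61 in Pax1-/-Pax9-/- cells, 11.04 to 11.11 in Pax1-/-Pax9+/- cells, 10.82 to 11.05 in Pax1-/- cells, 10.69 to 10.82 in Pax1+/- cells, 11.02 to 11.51 in WT cells and 4.70 to 8.53 in EGFP(-) cells. The log2 level of Pax9 was 4.73 to 6.81 in Pax1-/-Pax9-/- cells (mean 5.44), against 5.98 to 6.92 in WT cells. It was 6.54 to 6.89 in Pax1-/-Pax9+/- cells and 4.34 to 4.60 in EGFP(-) cells. The highest Pax1-/-Pax9-/- replicate thus lay inside the Pax1-/-Pax9+/- range. Pax9 was detected on 1 of 3 Pax1-/-Pax9-/- arrays and on all 3 Pax1-/-Pax9+/- arrays. Why the Pax1-/-Pax9-/- replicates differed was not tested. Sclerotome marker genes, a list that includes Pax1 and Pax9 themselves, averaged 7.59 to 7.87 in WT cells, against 5.52 to 6.37 in EGFP(-) cells.

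Cadherins are calcium-dependent adhesion proteins that hold like cells together through the binding of matching cadherins on neighbouring cells. Protocadherins adhere more weakly and tune the adhesion of the classical cadherins, immunoglobulin-type molecules bind without calcium and are best known from growing axons, and integrins anchor cells to the extracellular matrix. In the vertebral column, condensation of sclerotome cells around the notochord precedes the formation of the disc, and adhesion molecules are among the genes that such condensing mesenchyme uses.

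The promoters of Pcdh8, Pcdh19, Alcam and Astn1 are shown because these 4 genes were higher in Pax1-/-Pax9-/- cells than in WT cells. The sequences are those of RefSeq (GRCm38.p6) and cover 250 bases before to 50 bases after the gene's start, read 5′ to 3′ on the gene's strand. A promoter was found there for 5 of the 10 genes. Capitals mark matches on either strand to 3 motifs, which are a core of paired domain sites (GCGTGAC), the E2 box bound by Snail and Zeb factors and by basic helix-loop-helix factors (CACCTG) and the CCAAT box. No motif overlapped another in these windows.
Pcdh8, chr14:79771263-79771562, minus strand: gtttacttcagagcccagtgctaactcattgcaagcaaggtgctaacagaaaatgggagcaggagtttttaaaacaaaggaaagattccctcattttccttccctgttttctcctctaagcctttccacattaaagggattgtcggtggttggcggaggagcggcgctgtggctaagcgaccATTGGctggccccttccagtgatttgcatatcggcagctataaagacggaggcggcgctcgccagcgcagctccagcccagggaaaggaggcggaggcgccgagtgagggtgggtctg
Pcdh19, chrX:133688944-133689243, minus strand: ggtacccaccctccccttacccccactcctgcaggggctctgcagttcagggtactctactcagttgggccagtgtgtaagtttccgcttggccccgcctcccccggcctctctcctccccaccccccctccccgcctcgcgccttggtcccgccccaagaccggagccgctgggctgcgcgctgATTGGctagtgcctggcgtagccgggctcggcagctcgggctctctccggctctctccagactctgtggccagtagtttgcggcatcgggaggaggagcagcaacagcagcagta
Alcam, chr16:52453032-52453331, minus strand: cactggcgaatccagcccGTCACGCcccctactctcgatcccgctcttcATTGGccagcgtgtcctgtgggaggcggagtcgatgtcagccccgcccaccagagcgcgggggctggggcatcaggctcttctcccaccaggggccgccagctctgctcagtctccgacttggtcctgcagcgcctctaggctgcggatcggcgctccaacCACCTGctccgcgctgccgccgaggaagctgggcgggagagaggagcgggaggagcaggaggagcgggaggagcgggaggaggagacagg
Astn1, chr1:158362054-158362353, plus strand: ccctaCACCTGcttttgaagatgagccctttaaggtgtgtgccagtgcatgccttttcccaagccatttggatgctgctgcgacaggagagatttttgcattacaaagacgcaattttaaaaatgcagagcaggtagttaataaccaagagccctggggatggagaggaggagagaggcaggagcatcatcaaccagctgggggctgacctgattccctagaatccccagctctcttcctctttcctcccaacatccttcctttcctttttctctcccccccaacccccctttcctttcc

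The paired domain core occurred once in the Alcam promoter, 232 bases before the start and on the opposite strand, and in 2.09% of all 32851 promoters of the same length. The E2 box was found 40 bases before the start of Alcam and 245 bases before that of Astn1, and in 20.2% of all promoters. The CCAAT box was found 68, 65 and 201 bases before the starts of Pcdh8, Pcdh19 and Alcam, and in 37.4% of all promoters. The promoter of Pcdh8 held 54.3% G and C, that of Pcdh19 67.7%, that of Alcam 69.7% and that of Astn1 50.7%. A match describes the letters of the window and says nothing of binding by a factor.

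A level here is the log2 of a background-corrected, quantile-normalized intensity, averaged over the kept probes of a gene. A gene was called where limma's moderated test, adjusted over all 13373 genes by the Benjamini-Hochberg method, gave an adjusted p under 0.05 and the fold change was at least 1.5. The number of arrays limits the precision. The chips fall into series A (17 arrays, 3 chips, 45.44% to 50.64% of probes detected per array) and series B (11 arrays, 2 chips, 42.2% to 44.23%). All arrays of Pax1-/-Pax9-/- and Pax1-/-Pax9+/- cells lie on 1 chip of series B that holds no other group, whereas the EGFP(-) and Pax1+/- arrays are all in series A. WT and Pax1-/- arrays are in both.

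**Figure D1:**
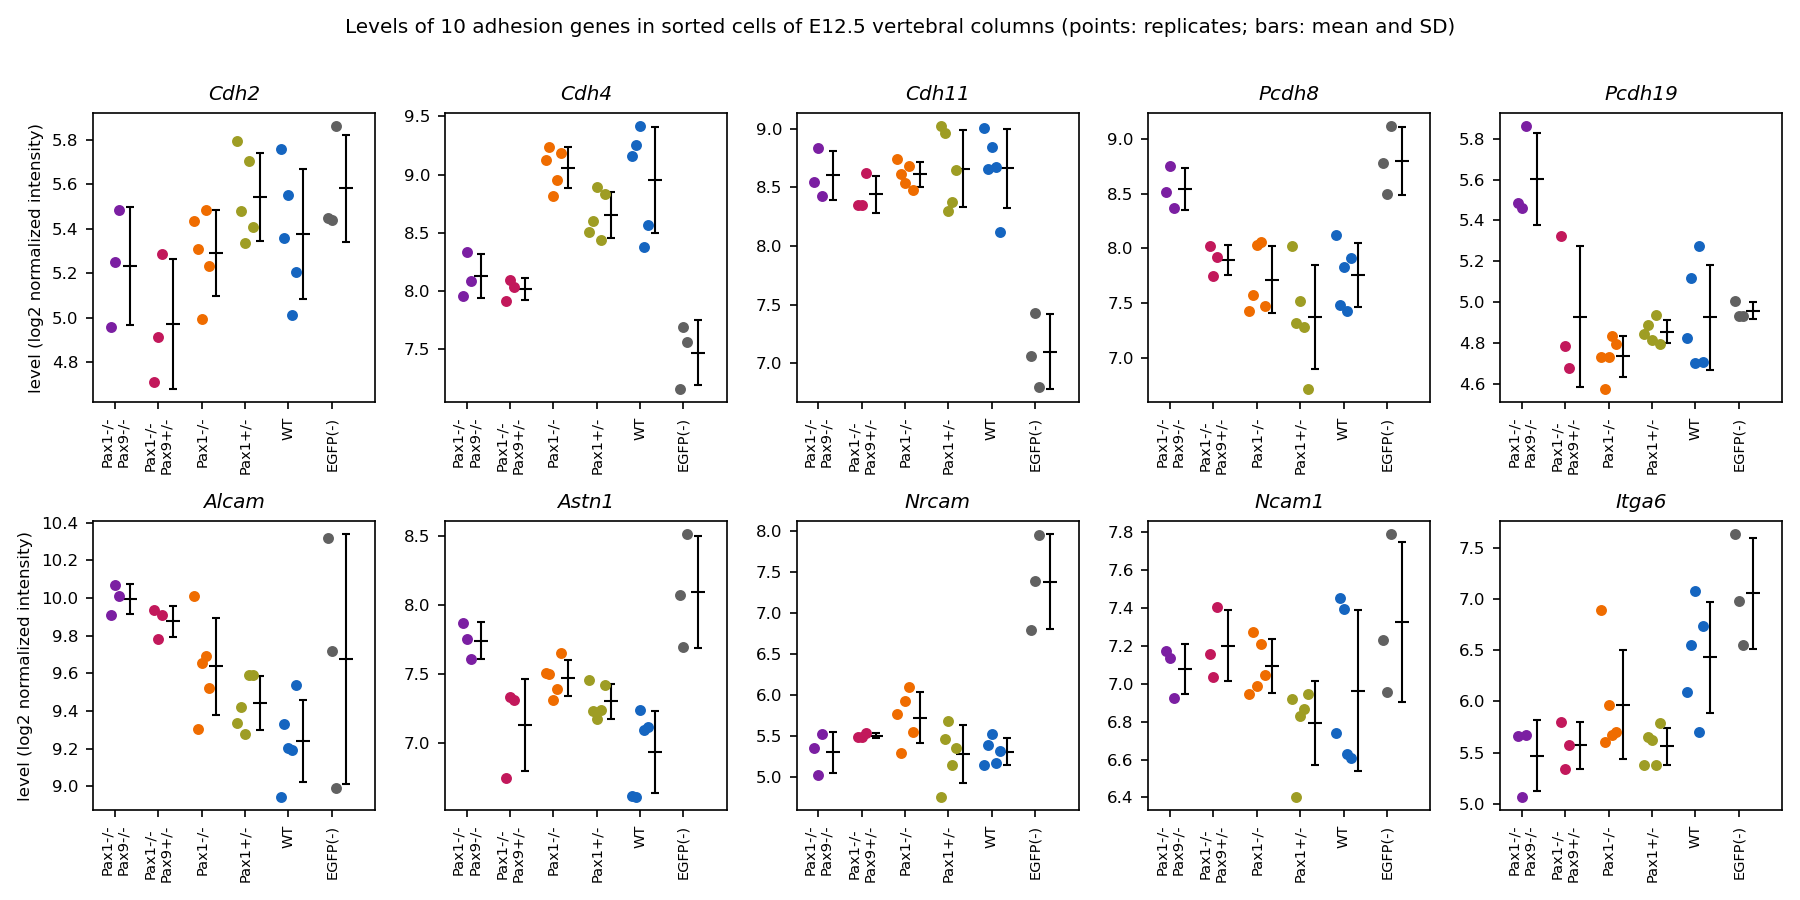
Log2 level (vertical axis) of each of the 10 genes in the 6 groups, with Pax1-/-Pax9-/- on the left and EGFP(-) on the right. Points are replicates and bars the mean and SD. Cdh11 lies at 6.80 to 7.43 in EGFP(-) cells, under every EGFP(+) replicate, and Nrcam lies at 6.79 to 7.95 there, over every one.

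Members of 1 family did not all differ alike between EGFP(+) and EGFP(-) cells. Cdh4 and Cdh11 were higher in the EGFP(+) cells of WT, Pax1+/- and Pax1-/- embryos, and Pcdh8, Astn1 and Nrcam were lower in all of these. In WT cells 5 of 10 members were called, 2 higher and 3 lower, against 16.4% of all genes tested. In Pax1+/- cells 6 members were called (2 higher and 4 lower, against 17.8% of all genes), and in Pax1-/- cells likewise 6 (2 higher and 4 lower, against 16.2%). The median log2 fold change of the members was -0.40 in WT cells, -0.38 in Pax1+/- cells and -0.26 in Pax1-/- cells, whereas that of all genes was 0.06, 0.08 and 0.06. These 3 comparisons share the same 3 EGFP(-) replicates. The members were chosen with earlier results of these data known. Shares of members called, here and below, are therefore no test of the gene class against all genes. In such bulk RNA, fewer cells of a type and less RNA per cell cannot be told apart.

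Cdh11, the cadherin of loose mesenchyme and of bone-forming cells, had log2 levels of 9.01, 8.65, 8.84, 8.68 and 8.12 in WT cells, against 7.06, 7.43 and 6.80 in EGFP(-) cells. It had 9.02, 8.96, 8.30, 8.38 and 8.65 in Pax1+/- cells and 8.75, 8.61, 8.54, 8.68 and 8.48 in Pax1-/- cells. No EGFP(+) replicate of these genotypes was as low as the highest EGFP(-) replicate. The log2 fold change over EGFP(-) cells was 1.56 ± 0.20 (SE, adjusted p = 1.39e-05) in WT cells, a 2.96-fold difference. It was 1.56 ± 0.20 (SE, adjusted p = 1.17e-05) in Pax1+/- cells and 1.51 ± 0.20 (SE, adjusted p = 2e-05) in Pax1-/- cells. All 3 of its probes were detected on all 28 arrays, and in WT against EGFP(-) cells they gave log2 fold changes of 1.94, 1.96 and 0.79.

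Cdh4, or R-cadherin, a classical cadherin named for the retina, had log2 levels of 9.16, 9.25, 9.42, 8.38 and 8.57 in WT cells, against 7.16, 7.69 and 7.56 in EGFP(-) cells. The lowest WT replicate, B5, still lay above the highest EGFP(-) replicate. Levels were 8.51, 8.60, 8.89, 8.44 and 8.83 in Pax1+/- cells and 9.12, 9.24, 8.81, 8.95 and 9.18 in Pax1-/- cells, again above every EGFP(-) replicate. Over EGFP(-) cells its log2 fold change was 1.49 ± 0.21 (SE, adjusted p = 3.84e-05) in WT cells (2.8-fold), 1.18 ± 0.21 (SE, adjusted p = 0.000356) in Pax1+/- cells and 1.59 ± 0.21 (SE, adjusted p = 1.93e-05) in Pax1-/- cells. Its pair of probes, both detected on every array, gave 1.64 and 1.33 in WT against EGFP(-) cells.

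Nrcam, a member of the L1 family that organises axon contacts and nodes of Ranvier, had log2 levels of 5.15, 5.40, 5.53, 5.17 and 5.31 in WT cells, against 6.79, 7.39 and 7.95 in EGFP(-) cells. The groups did not overlap, and the log2 fold change of -2.07 ± 0.24 (SE, adjusted p = 3.78e-06) was called lower in WT cells. It was -2.10 ± 0.24 (SE, adjusted p = 2.76e-06) in Pax1+/- cells and -1.65 ± 0.24 (SE, adjusted p = 4.68e-05) in Pax1-/- cells. Of its 4 probes, 3 gave values from -2.55 to -2.98 in WT against EGFP(-) cells and 1 gave 0.20 (ILMN_1240336, detected on 16 of 28 arrays), so the mean over probes rests on probes that disagree. ILMN_1229656, which gave -2.98, was detected on all 6 WT arrays, whereas the others were detected on 3 (ILMN_1212898), 2 (ILMN_1240336) and 2 (ILMN_1245780) of them, so the WT level lay near background for these and the size of the difference is uncertain.

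Pcdh8, the paraxial protocadherin of the segmenting mesoderm, also had its highest levels in EGFP(-) cells. It had 8.13, 7.48, 7.83, 7.43 and 7.91 in WT cells, 8.03, 7.32, 7.52, 7.28 and 6.71 in Pax1+/- cells and 7.43, 7.58, 8.03, 8.06 and 7.47 in Pax1-/- cells, against 8.78, 8.50 and 9.12 in EGFP(-) cells. Relative to EGFP(-) cells it changed by -1.05 ± 0.25 (SE, adjusted p = 0.00457) on the log2 scale in WT cells, -1.43 ± 0.25 (SE, adjusted p = 0.000268) in Pax1+/- cells and -1.09 ± 0.25 (SE, adjusted p = 0.00354) in Pax1-/- cells, with no overlap of replicates. These values rest on 1 probe, detected on all 28 arrays, since the other 2 were detected on none and were left out. With the undetected probes averaged in, the values shrank to -0.34 in WT, -0.48 in Pax1+/- and -0.36 in Pax1-/- cells, and none was called.

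Astn1, which guides neurons along glial fibres in the cerebellum, had log2 levels of 6.62, 6.61, 7.24, 7.10 and 7.11 in WT cells, against 8.07, 7.70 and 8.51 in EGFP(-) cells. It had 7.46, 7.23, 7.17, 7.24 and 7.42 in Pax1+/- cells and 7.51, 7.50, 7.31, 7.39 and 7.65 in Pax1-/- cells. All of these lay under the lowest EGFP(-) replicate. Log2 fold changes over EGFP(-) cells were -1.16 ± 0.18 (SE, adjusted p = 8.61e-05) in WT cells, -0.79 ± 0.18 (SE, adjusted p = 0.00279) in Pax1+/- cells and -0.62 ± 0.18 (SE, adjusted p = 0.0169) in Pax1-/- cells. The Pax1+/- and Pax1-/- calls were lost without EGFP(-) replicate B3, at -0.58 (adjusted p = 0.0302, under the fold limit) and -0.41 (adjusted p = 0.136). The Pax1-/- call was also lost without Pax1-/- replicate B3 (-0.58, adjusted p = 0.0387, under the fold limit). With median centring neither was called (-0.65, adjusted p = 0.0506, and -0.65, adjusted p = 0.0597), and the Pax1-/- value was -0.37 (adjusted p = 0.391) with the brightest probe alone and -0.48 (under the fold limit) with the authors' log2 values.

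Itga6, the laminin-binding integrin subunit found on epithelia, endothelium and Schwann cells, had log2 levels of 6.10, 6.55, 7.08, 5.70 and 6.73 in WT cells, against 7.64, 6.98 and 6.55 in EGFP(-) cells. WT and EGFP(-) replicates overlapped, and the log2 fold change of -0.63 ± 0.31 (SE, adjusted p = 0.178) was not called. Levels in Pax1+/- cells were 5.37, 5.65, 5.62, 5.38 and 5.79, all under the EGFP(-) replicates, with a log2 fold change of -1.5 ± 0.31 (SE, adjusted p = 0.00155). In Pax1-/- cells they were 6.89, 5.60, 5.97, 5.68 and 5.70, where replicate B1 reached the EGFP(-) range, and the log2 fold change was -1.09 ± 0.31 (SE, adjusted p = 0.0176). The Pax1-/- call was lost without EGFP(-) replicate B1 (-0.80, adjusted p = 0.119) and within chip series A (-0.97, adjusted p = 0.0651), and with signals floored at 1 it was -1.41 (adjusted p = 0.063).

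On the mean over their probes, the remaining 4 members were not called in any EGFP(+) genotype against EGFP(-) cells. Alcam, the activated leukocyte cell adhesion molecule, spread widely among the EGFP(-) replicates, at 10.32, 9.72 and 8.99, around the WT values of 8.94 to 9.54. Its log2 fold change in WT cells was -0.43 ± 0.22 (SE, adjusted p = 0.188), and without EGFP(-) replicate B3 it was -0.78 (adjusted p = 0.00981) and called. Ncam1, the neural cell adhesion molecule, ranged over 6.61 to 7.45 in WT cells, 6.40 to 6.95 in Pax1+/- cells and 6.95 to 7.27 in Pax1-/- cells, against 6.96 to 7.79 in EGFP(-) cells. Its log2 fold changes over EGFP(-) cells were -0.36 ± 0.22 (SE, adjusted p = 0.276) in WT cells, -0.53 ± 0.22 (SE, adjusted p = 0.0889) in Pax1+/- cells and -0.23 ± 0.22 (SE, adjusted p = 0.516) in Pax1-/- cells. In Pax1+/- cells its replicates did not overlap those of EGFP(-) cells, and the difference was called without EGFP(-) replicate B2 (-0.72, adjusted p = 0.0423). With the brightest probe in place of the mean over probes, Ncam1 was called lower in all 3 genotypes, at -0.64 (adjusted p = 0.0473) in WT, -0.63 (adjusted p = 0.0498) in Pax1+/- and -0.64 (adjusted p = 0.0476) in Pax1-/- cells.

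Cdh2, or N-cadherin, the main cadherin of neural tissue and of somites, ranged over 5.01 to 5.76 in WT cells, 5.34 to 5.79 in Pax1+/- cells and 5.00 to 5.48 in Pax1-/- cells, against 5.44 to 5.86 in EGFP(-) cells. Its log2 fold change in WT cells was -0.21 ± 0.17 (SE, adjusted p = 0.459), with a 95% interval of -0.57 to 0.15. One of its pair of probes was detected on 11 and the other on 23 of 28 arrays. Pcdh19, an X-linked protocadherin that acts together with N-cadherin, was low in all these groups, at 4.70 to 5.28 in WT cells against 4.93 to 5.01 in EGFP(-) cells. Its log2 fold change was -0.03 ± 0.13 (SE, adjusted p = 0.894), with a 95% interval of -0.30 to 0.24, and its probes were detected on 1 and 2 of the 6 WT arrays and on 3 and 1 of the 3 EGFP(-) arrays.

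**Figure D2:**
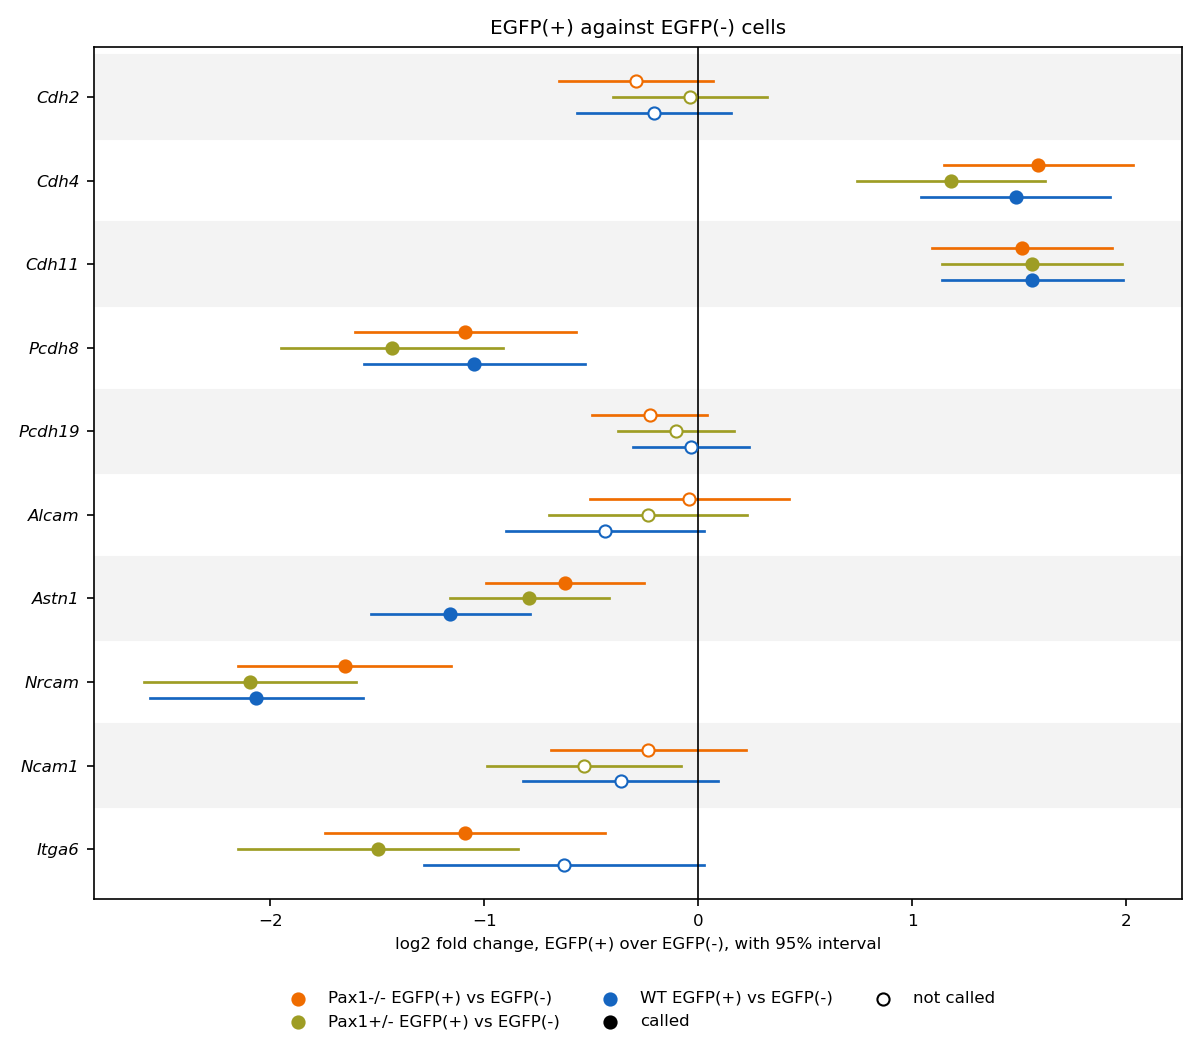
Log2 fold change over EGFP(-) cells (horizontal axis) of each of the 10 genes in WT, Pax1+/- and Pax1-/- EGFP(+) cells, with 95% confidence intervals from limma. Cdh4 and Cdh11 lie to the right of 0 in all 3 genotypes, and Pcdh8, Astn1 and Nrcam to the left.

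Markers of most other cell types were also called lower in WT than in EGFP(-) cells, against 9.14% of all genes. Of 13 neuronal genes, 11 were called lower in WT cells, and their mean log2 level was 5.73 to 6.42 in WT cells, against 7.52 to 7.80 in EGFP(-) cells. Of 8 endothelial genes all 8 were called lower (4.77 to 5.58 in WT cells, against 6.18 to 7.60 in EGFP(-) cells), as were 7 of 8 macrophage genes (4.61 to 5.40 in WT cells, against 6.95 to 8.05 in EGFP(-) cells). The same held for 4 of 5 skeletal muscle genes (5.51 to 6.20 in WT cells, against 6.69 to 7.25 in EGFP(-) cells) and all 5 erythroid genes (4.92 to 6.79 in WT cells, against 9.66 to 9.88 in EGFP(-) cells). Of 5 neural progenitor genes 3 were called lower, and of 2 neural crest and glial genes 1. Of 4 notochord and epithelial genes 1 was called lower, with levels of 4.90 to 5.31 in WT cells, against 4.78 to 6.29 in EGFP(-) cells. Sclerotome genes went the other way, with 5 of 7 called higher. That list includes Pax1, whose locus carries the EGFP used for the sort, and Pax9, so part of this follows from the sort. What part the cell types had in the values of Nrcam, Astn1, Pcdh8 and Itga6 was not tested.

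Of 78 other adhesion genes listed, 62 were tested. In WT against EGFP(-) cells 10 were called higher and 20 lower, beside 7.22% and 9.14% of all genes. The 19 tested immunoglobulin-type molecules gave 0 higher and 12 lower calls, whereas the 11 integrins gave 5 higher and 1 lower, the 16 cadherins and catenins 1 and 3, and the 16 protocadherins and large cadherins 4 and 4. By adjusted p the leading ones were Nptn, or neuroplastin (-1.13, adjusted p = 2.87e-07), Ctnnd2, the delta-catenin of neurons (-2.19, adjusted p = 3.26e-07), Chl1, a relative of L1 (-1.56, adjusted p = 3.54e-06), and Esam, an adhesion molecule of endothelial cells (-2.43, adjusted p = 1.61e-05). In Pax1+/- cells 9 were called higher and 21 lower, beside 8.14% and 9.63% of all genes, led by Ctnnd2 (-2.40), Nptn (-1.21) and Chl1 (-1.66). In Pax1-/- cells 9 were called higher and 19 lower, beside 7.49% and 8.69% of all genes, led by Nptn (-1.10), Ctnnd2 (-2.08) and Chl1 (-1.49). Cntn2, a contactin of commissural axons, was among the leading genes of both, at -4.27 in Pax1+/- cells and -3.36 in Pax1-/- cells.

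No member was called between Pax1+/- or Pax1-/- cells and WT cells. In Pax1+/- against WT cells limma called 0 of 10 members, beside 0.419% of all genes. At an unadjusted p under 0.05 were 2 members, beside 1855 of 13373 genes. In Pax1-/- against WT cells limma called 0 members as well, beside 0.247% of all genes. Here 3 members had an unadjusted p under 0.05, beside 1294 of 13373 genes. Median log2 fold changes of the members were -0.05 and 0.03 in these comparisons.

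Astn1 was the member with the smallest p in Pax1-/- against WT cells. Its levels there were 7.51, 7.50, 7.31, 7.39 and 7.65 in Pax1-/- cells, against 6.62, 6.61, 7.24, 7.10 and 7.11 in WT cells. The replicates did not overlap, but single arrays did, with Pax1-/- replicate B3 at 7.10 and WT replicate B5 at 7.30 on chip 2. The log2 fold change was 0.54 ± 0.14 (SE, adjusted p = 0.141). Within chip series A it was 0.72 (adjusted p = 0.0432), and within series B it was 0.05 (adjusted p = 0.959). In Pax1+/- against WT cells the log2 fold change of Astn1 was 0.37 ± 0.14 (SE, adjusted p = 0.243), with overlapping replicates.

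Itga6 had the smallest p of the members in Pax1+/- against WT cells, with levels of 5.37, 5.65, 5.62, 5.38 and 5.79 in Pax1+/- cells, against 6.10, 6.55, 7.08, 5.70 and 6.73 in WT cells. WT replicate B5, at 5.70, was the only one inside the Pax1+/- range. Its log2 fold change was -0.87 ± 0.25 (SE, adjusted p = 0.12), and without that replicate it was -1.05 (adjusted p = 0.0365) and called. In Pax1-/- against WT cells Alcam, at 0.39 ± 0.12 (SE, adjusted p = 0.243), and Nrcam, at 0.41 ± 0.16 (SE, adjusted p = 0.385), also had unadjusted p-values under 0.05 but overlapping replicates. For the others the 95% intervals of Pax1-/- against WT were -0.40 to 0.23 for Cdh2, -0.24 to 0.45 for Cdh4, -0.38 to 0.28 for Cdh11, -0.45 to 0.37 for Pcdh8, -0.47 to 0.08 for Pcdh19, -0.21 to 0.47 for Ncam1 and -0.98 to 0.05 for Itga6.

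The compound mutants differed from WT cells in more members. In Pax1-/-Pax9-/- against WT cells 6 of 10 members were called, beside 6.86% of all genes. Since the members were chosen with earlier results of these data known, this share does not describe adhesion genes as a class. Of 62 other adhesion genes tested, 3 were called higher and 0 lower. Pcdh8, Pcdh19, Alcam and Astn1 were higher and Cdh4 and Itga6 lower. These 6 were also the ones whose replicates did not overlap, as held for 13.1% of all genes. In Pax1-/-Pax9+/- against WT cells 2 of 10 were called, beside 4.78% of all genes, with Alcam higher and Cdh4 lower. The 2 comparisons share their WT replicates. The compound mutants lie on a chip of their own, so against WT or Pax1-/- cells chip and genotype cannot be told apart. Values against the WT or Pax1-/- arrays of the same chip series are given beside each call. Those arrays lie on another chip, so neither these values nor the settings with chip or series as a block separate chip from genotype.

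Few markers of other cell types were called between these groups. In Pax1-/-Pax9-/- against WT cells 1 of 8 endothelial genes was called higher, with a mean log2 level of the list of 5.42 to 5.84 in Pax1-/-Pax9-/- cells, against 4.77 to 5.58 in WT cells. Of 5 erythroid genes 1 was called lower (5.22 to 5.57 in Pax1-/-Pax9-/- cells, against 4.92 to 6.79 in WT cells), and of 7 sclerotome genes, which include Pax1 and Pax9, 1 was higher and 2 lower (7.50 to 7.81 in Pax1-/-Pax9-/- cells, against 7.59 to 7.87 in WT cells). None of the 13 neuronal genes was called (6.05 to 6.16 in Pax1-/-Pax9-/- cells, against 5.73 to 6.42 in WT cells), nor any of the 5 skeletal muscle (5.98 to 6.19 in Pax1-/-Pax9-/- cells, against 5.51 to 6.20 in WT cells) or 8 macrophage genes (5.13 to 5.47 in Pax1-/-Pax9-/- cells, against 4.61 to 5.40 in WT cells). In Pax1-/-Pax9+/- against WT cells the single marker called was 1 of 4 notochord and epithelial genes, which was lower. Their part in the members' values was not tested.

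Alcam had log2 levels of 9.91, 10.07 and 10.01 in Pax1-/-Pax9-/- cells, against 8.94, 9.33, 9.20, 9.19 and 9.54 in WT cells. Levels in Pax1-/-Pax9+/- cells were 9.93, 9.78 and 9.91, so that every compound mutant replicate lay above every WT replicate. Levels were 10.01, 9.31, 9.66, 9.69 and 9.52 in Pax1-/- cells, which overlapped both the WT and the compound mutant range, and 9.33, 9.42, 9.28, 9.59 and 9.59 in Pax1+/- cells, which overlapped the WT range alone. Over WT cells its log2 fold change was 0.75 ± 0.14 (SE, adjusted p = 0.00339) in Pax1-/-Pax9-/- cells (1.69-fold) and 0.63 ± 0.14 (SE, adjusted p = 0.0152) in Pax1-/-Pax9+/- cells. The Pax1-/-Pax9-/- call held with chip as a random block (0.76, adjusted p = 0.0224) and with chip series as a block (0.71, adjusted p = 0.02), while series B alone gave 0.63 (adjusted p = 0.168). The Pax1-/-Pax9+/- call was lost in all 3 of these settings (0.51 to 0.64, adjusted p = 0.106 to 0.475). It was also lost without Pax1-/-Pax9+/- replicate B1 (0.60, adjusted p = 0.0577), Pax1-/-Pax9+/- replicate B3 (0.62, adjusted p = 0.0663) or WT replicate B2 (0.56, adjusted p = 0.0402, under the fold limit), with median centring (0.52, adjusted p = 0.096), with the authors' log2 values (0.58, under the fold limit) and with the compared groups alone (0.63, adjusted p = 0.113).

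Astn1 had log2 levels of 7.87, 7.75 and 7.60 in Pax1-/-Pax9-/- cells, against 6.62, 6.61, 7.24, 7.10 and 7.11 in WT cells. The lowest mutant replicate was above the highest WT replicate, and the log2 fold change was 0.81 ± 0.16 (SE, adjusted p = 0.0042), or 1.75-fold. Both of its probes were higher, at 0.94 (adjusted p = 0.0297) and 0.67 (adjusted p = 0.061). In Pax1-/-Pax9+/- cells the levels were 6.74, 7.33 and 7.31, with replicate B1 inside the WT range and B2 and B3 above every WT replicate. The log2 fold change over WT was 0.19 ± 0.16 (SE, adjusted p = 0.503). For Pax1-/-Pax9-/- against WT, chip as a random block gave 0.78 (adjusted p = 0.0439), chip series as a block 0.80 (adjusted p = 0.0226) and series B alone 0.53 (adjusted p = 0.322). The call was lost with median centring (0.49, adjusted p = 0.118), with the authors' log2 values (0.57, under the fold limit) and with the compared groups alone (0.81, adjusted p = 0.0695).

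Pcdh8 had log2 levels of 8.52, 8.76 and 8.37 in Pax1-/-Pax9-/- cells, against 8.13, 7.48, 7.83, 7.43 and 7.91 in WT cells and 7.43, 7.58, 8.03, 8.06 and 7.47 in Pax1-/- cells. All 3 mutant replicates lay above both sets. On its chip 4 array, however, Pax1-/- replicate B4 was at 8.41, above Pax1-/-Pax9-/- replicate B3. Levels in Pax1-/-Pax9+/- cells were 8.02, 7.75 and 7.92, inside the WT range. The log2 fold change of Pax1-/-Pax9-/- cells was 0.79 ± 0.23 (SE, adjusted p = 0.0332) over WT and 0.83 ± 0.23 (SE, adjusted p = 0.0195) over Pax1-/- cells. Against WT the call was lost with chip as a random block (0.86, adjusted p = 0.149), with chip series as a block (0.84, adjusted p = 0.179) and within series B (0.65, adjusted p = 0.237). Leaving out any of the 3 Pax1-/-Pax9-/- replicates ended it as well (0.69 to 0.88, adjusted p = 0.0673 to 0.131), as did leaving out WT replicate B3 (0.72, adjusted p = 0.0775), B4 (0.81, adjusted p = 0.0563) or B5 (0.71, adjusted p = 0.0596). Against Pax1-/- cells it was lost without Pax1-/-Pax9-/- replicate B2 (0.73, adjusted p = 0.0893), with chip as a random block (0.76, adjusted p = 0.137), with chip series as a block (0.76, adjusted p = 0.156) and within series B (0.88, adjusted p = 0.0541). With median centring the values were 0.52 (adjusted p = 0.19) over WT and 0.51 (adjusted p = 0.168) over Pax1-/- cells, and with the undetected probes averaged in they were 0.24 (adjusted p = 0.0988) and 0.26 (adjusted p = 0.0652).

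Pcdh19 had log2 levels of 5.49, 5.46 and 5.86 in Pax1-/-Pax9-/- cells, against 4.82, 5.12, 4.70, 5.28 and 4.70 in WT cells. The levels were 5.32, 4.79 and 4.68 in Pax1-/-Pax9+/- cells and 4.73, 4.57, 4.73, 4.83 and 4.79 in Pax1-/- cells, and the EGFP(-) cells ranged over 4.93 to 5.01. Pax1-/-Pax9-/- cells were thus the group with the highest level, and their lowest replicate was above the highest replicate of every other group. WT replicate B5 is a mean over chips 2 and 4, however. Its chip 4 array, at 5.68, lay above Pax1-/-Pax9-/- replicates B1 and B2. Both probes were detected on all 3 Pax1-/-Pax9-/- arrays, but each on only 1 of 3 Pax1-/-Pax9+/- arrays and 1 of 8 Pax1-/- arrays, so that levels in those groups lay near the detection limit. Pax1-/-Pax9-/- cells had a log2 fold change of 0.68 ± 0.15 (SE, adjusted p = 0.00919) over WT and 0.87 ± 0.15 (SE, adjusted p = 0.0014) over Pax1-/- cells, and the probes gave 0.88 (adjusted p = 0.0186) and 0.47 (adjusted p = 0.102) over WT. Against WT the chip settings gave 0.61 (adjusted p = 0.117, chip as a random block), 0.71 (adjusted p = 0.0581, chip series as a block) and 0.82 (adjusted p = 0.13, series B alone), and leaving out Pax1-/-Pax9-/- replicate B3 gave 0.55 (adjusted p = 0.072). Against Pax1-/- cells the first and second of these settings kept the call, at 0.87 (adjusted p = 0.0136) and 0.96 (adjusted p = 0.00558), and series B alone gave 0.88 (adjusted p = 0.0541). The size depended on how low signals were treated. Over WT it was 0.30 with the authors' log2 values (under the fold limit), 0.49 (adjusted p = 0.0557) with median centring and 1.63 (adjusted p = 0.0982) with signals floored at 1, none of them called. Over Pax1-/- cells it was 0.40 with the authors' log2 values, under the fold limit and so not called, and 2.45 (adjusted p = 0.014) with signals floored at 1. With the compared groups alone the WT call was lost too (adjusted p = 0.102).

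Cdh4 had log2 levels of 7.96, 8.33 and 8.09 in Pax1-/-Pax9-/- cells and 7.91, 8.10 and 8.03 in Pax1-/-Pax9+/- cells, against 9.16, 9.25, 9.42, 8.38 and 8.57 in WT cells and 9.12, 9.24, 8.81, 8.95 and 9.18 in Pax1-/- cells. The highest compound mutant replicate, at 8.33, lay just under the lowest WT replicate, B5 at 8.38, and well under every Pax1-/- replicate. Of the groups, EGFP(-) cells alone were lower, at 7.16 to 7.69. The chip 2 array of WT replicate B5, at 8.08, lay inside the compound mutant range. The log2 fold change over WT was -0.83 ± 0.19 (SE, adjusted p = 0.0118) in Pax1-/-Pax9-/- cells and -0.94 ± 0.19 (SE, adjusted p = 0.00934) in Pax1-/-Pax9+/- cells. The probes disagreed on the size: ILMN_1255939 gave -1.43 (adjusted p = 0.00538) and ILMN_1260036 gave -0.22 (adjusted p = 0.377) in Pax1-/-Pax9-/- against WT cells. The WT arrays of series B, at 8.08 and 8.57, are the lowest of that genotype, and within series B the log2 fold change was -0.19 (adjusted p = 0.82) in Pax1-/-Pax9-/- cells and -0.31 (adjusted p = 0.816) in Pax1-/-Pax9+/- cells. With chip series as a block the values were -0.36 (adjusted p = 0.458) and -0.47 (adjusted p = 0.47), and with chip as a random block -0.74 (adjusted p = 0.102) and -0.85 (adjusted p = 0.111). The Pax1-/-Pax9-/- call was lost without Pax1-/-Pax9-/- replicate B1 (-0.75, adjusted p = 0.051) or B3 (-0.81, adjusted p = 0.0538). With the brightest probe alone the log2 fold change over WT was -0.22 (adjusted p = 0.358) in Pax1-/-Pax9-/- and -0.29 (adjusted p = 0.253) in Pax1-/-Pax9+/- cells, and the authors' log2 values gave -0.57 (under the fold limit) in Pax1-/-Pax9-/- cells.

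Itga6 had log2 levels of 5.66, 5.07 and 5.67 in Pax1-/-Pax9-/- cells, against 6.10, 6.55, 7.08, 5.70 and 6.73 in WT cells. The groups did not overlap, but the highest mutant replicate, at 5.67, lay close to the lowest WT replicate, at 5.70. That WT replicate, B5, is a mean of 6.32 on chip 2 and 5.08 on chip 4, so single arrays overlapped. Levels in Pax1-/-Pax9+/- cells were 5.80, 5.34 and 5.58, which overlapped the WT range. Log2 fold changes over WT were -0.96 ± 0.28 (SE, adjusted p = 0.0373) in Pax1-/-Pax9-/- cells and -0.86 ± 0.28 (SE, adjusted p = 0.0715), not called, in Pax1-/-Pax9+/- cells. The 3 probes gave -1.17, -0.75 and -0.98 in Pax1-/-Pax9-/- cells. The call was lost in all 3 chip settings (-0.73 to -1.06, adjusted p = 0.165 to 0.419), without any one of the Pax1-/-Pax9-/- replicates (-0.76 to -1.07, adjusted p = 0.0588 to 0.17), and without WT replicate B3 (-0.93, adjusted p = 0.0737) or B4 (-0.80, adjusted p = 0.0911). The Pax1-/-Pax9+/- difference was called without WT replicate B5 (-1.05, adjusted p = 0.0256). In Pax1-/-Pax9-/- cells the authors' log2 values gave -0.55 (under the fold limit) and signals floored at 1 gave -1.63 (adjusted p = 0.0755), neither called.

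The other 4 members were not called between compound mutant and WT cells on the mean over their probes. Cdh11 ranged over 8.43 to 8.83 in Pax1-/-Pax9-/- cells and 8.35 to 8.62 in Pax1-/-Pax9+/- cells, against 8.12 to 9.01 in WT cells. The 95% interval of its log2 fold change in Pax1-/-Pax9-/- cells was -0.44 to 0.32. Ncam1 ranged over 6.93 to 7.17 in Pax1-/-Pax9-/- cells, against 6.61 to 7.45 in WT cells, with an interval of -0.27 to 0.50.

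Nrcam ranged over 5.03 to 5.52 in Pax1-/-Pax9-/- cells, against 5.15 to 5.53 in WT cells, with an interval of -0.40 to 0.38. Its probe ILMN_1245780 was detected on 0 of the 6 compound mutant arrays, against 7 of 8 Pax1-/- arrays and 2 of 6 WT arrays. Cdh2 ranged over 4.96 to 5.49 in Pax1-/-Pax9-/- cells and 4.71 to 5.29 in Pax1-/-Pax9+/- cells, against 5.01 to 5.76 in WT cells. Its pair of probes went opposite ways in Pax1-/-Pax9-/- against WT cells, at 0.49 and -0.78, so the mean over both describes neither. In Pax1-/-Pax9+/- against WT cells the log2 fold change of Cdh2 was -0.41 ± 0.18 (SE, adjusted p = 0.168), and probe ILMN_2605503 on its own was called lower (-1.07, adjusted p = 0.0434). That probe was detected on 1 of 3 Pax1-/-Pax9+/- arrays and 5 of 6 WT arrays.

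**Figure D3:**
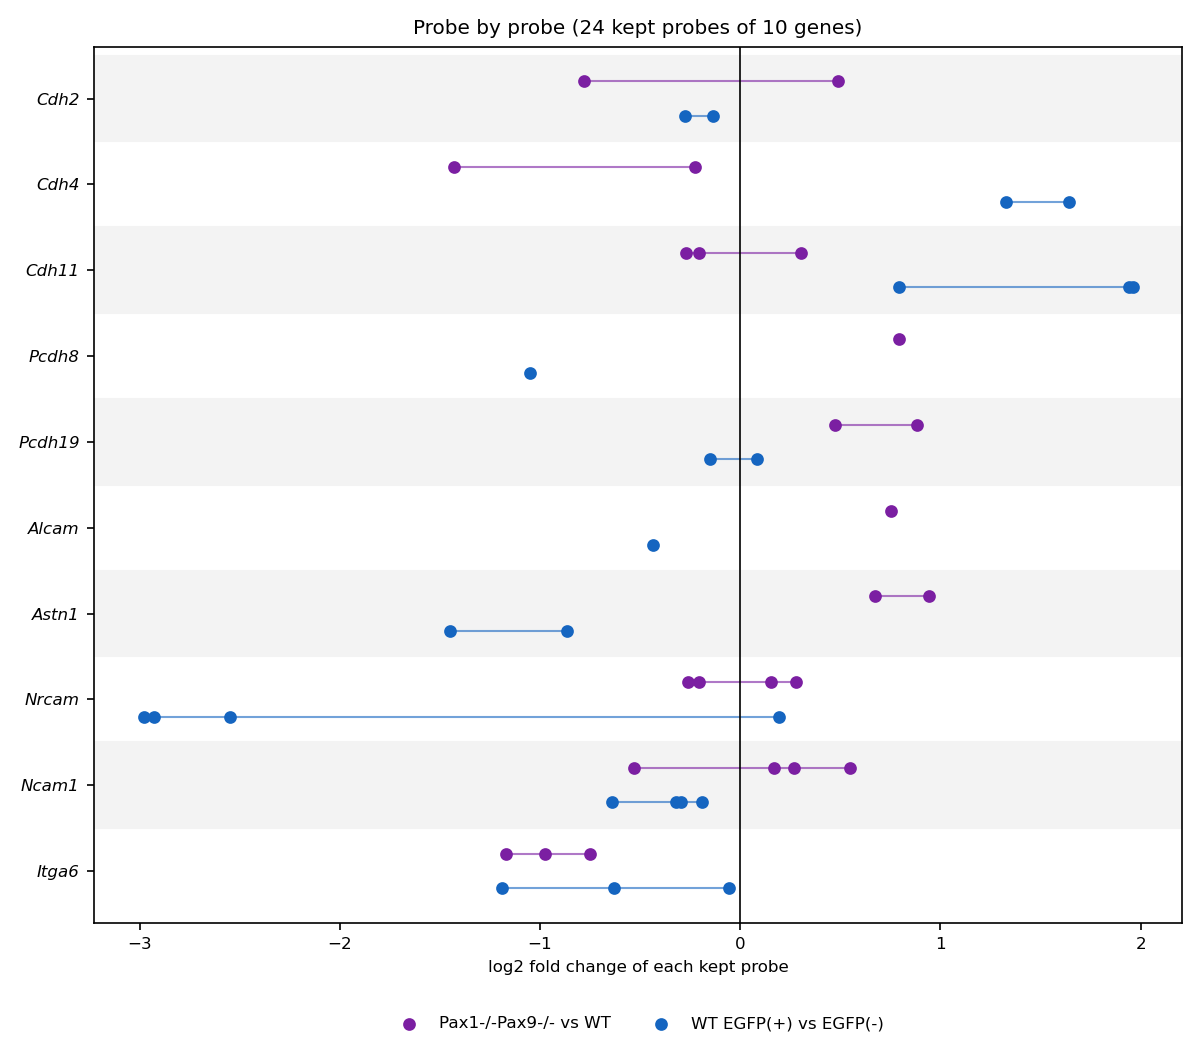
Log2 fold change of each of the 24 kept probes (horizontal axis), grouped by gene, in Pax1-/-Pax9-/- against WT cells and in WT against EGFP(-) cells. The Cdh4 probes lie at -1.43 and -0.22 in the comparison with WT, and the Cdh2 probes on opposite sides of 0.

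Against Pax1-/- cells, which differ from the compound mutants in Pax9 alone by genotype, 3 of 10 members were called in Pax1-/-Pax9-/- cells, beside 9.62% of all genes. Pcdh8 and Pcdh19 were higher and Cdh4 lower. For Pax1-/-Pax9+/- cells it was 1 of 10, Cdh4, beside 8.14% of all genes. The 2 comparisons share the Pax1-/- replicates. The Pax9 mutant allele also carries EGFP, so the reporter used for sorting differs along with Pax9, and these cannot be told apart. The same holds for the compound mutants against WT cells and against each other. The log2 fold change of Cdh4 over Pax1-/- cells was -0.93 ± 0.19 (SE, adjusted p = 0.004) in Pax1-/-Pax9-/- cells and -1.05 ± 0.19 (SE, adjusted p = 0.00272) in Pax1-/-Pax9+/- cells, without overlap. With chip as a random block both calls held, at -0.94 (adjusted p = 0.02) and -1.05 (adjusted p = 0.0265), and with chip series as a block neither did, at -0.56 (adjusted p = 0.107) and -0.67 (adjusted p = 0.108). Within series B the values were -0.66 (adjusted p = 0.132) and -0.78 (adjusted p = 0.191), and with the brightest probe alone -0.43 (adjusted p = 0.0625) and -0.50 (adjusted p = 0.0379, under the fold limit), neither called. Alcam and Astn1 were not called over Pax1-/- cells, at 0.36 ± 0.14 (SE, adjusted p = 0.097) and 0.27 ± 0.16 (SE, adjusted p = 0.27) in Pax1-/-Pax9-/- cells.

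**Figure D4:**
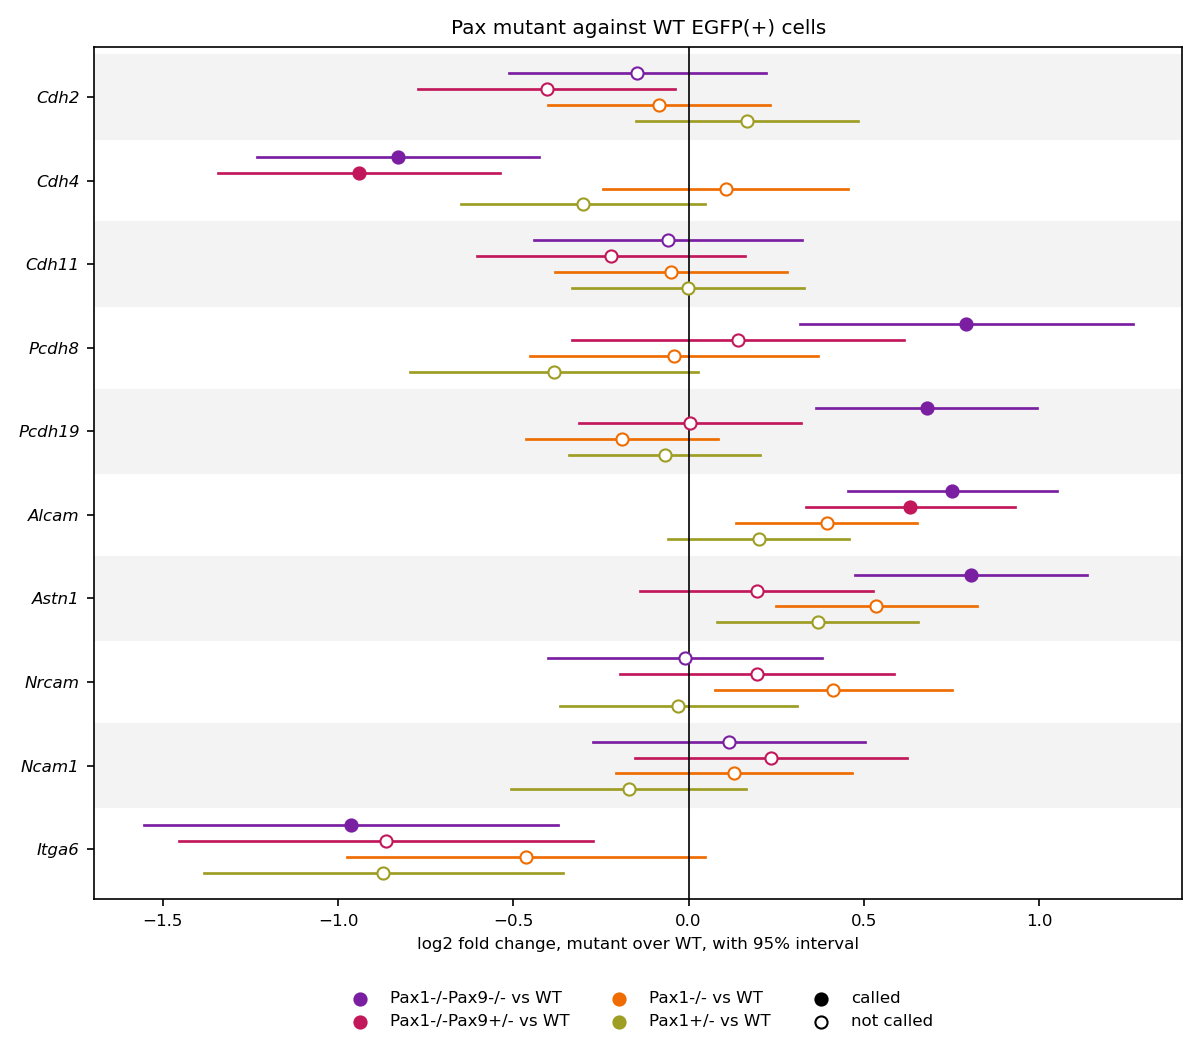
Log2 fold change over WT cells (horizontal axis) of the 10 genes in the 4 mutant genotypes, with 95% confidence intervals from limma. Alcam lies to the right of 0 in Pax1-/-Pax9-/- cells (0.75) and Pax1-/-Pax9+/- cells (0.63), and Cdh4 to the left in both.

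**Figure D5:**
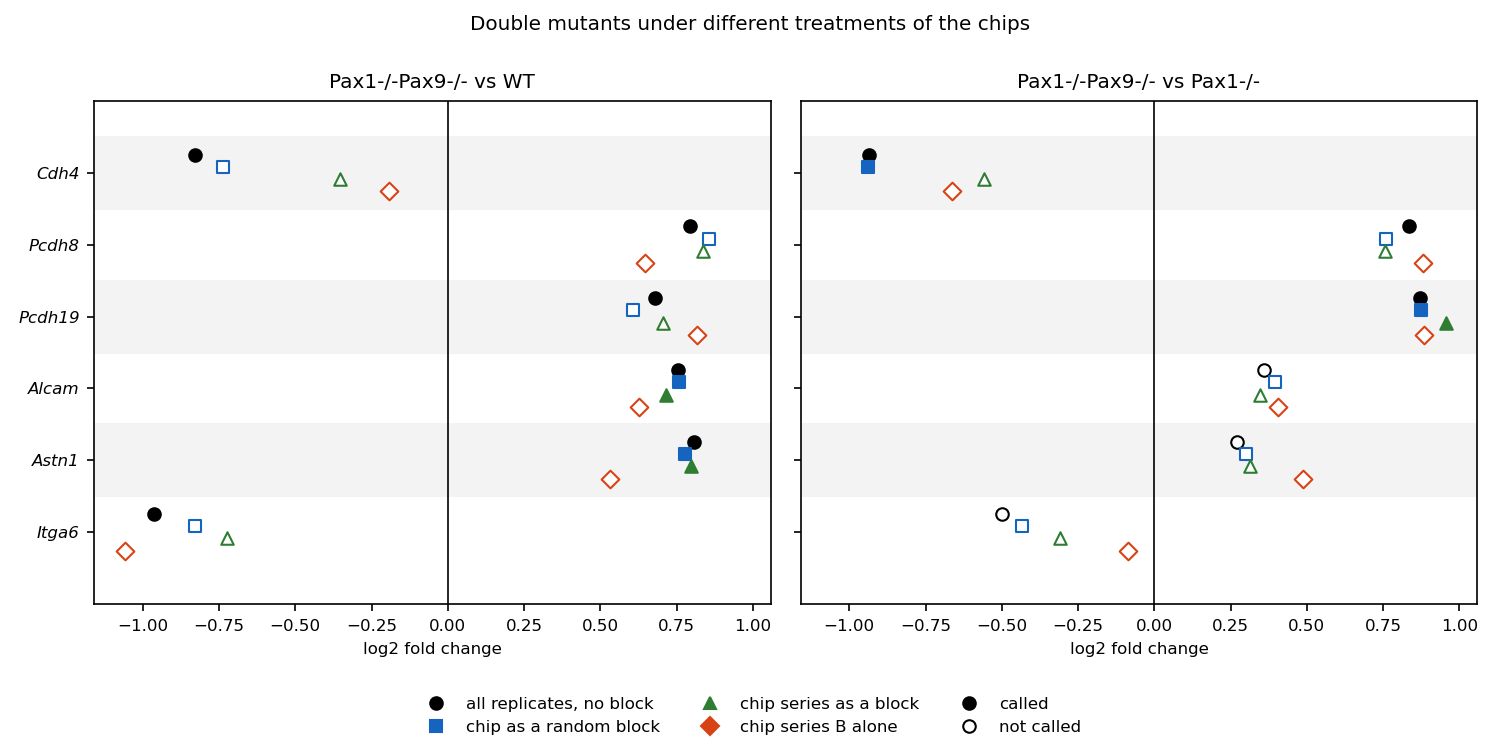
Log2 fold change (horizontal axis) of the 6 genes called in Pax1-/-Pax9-/- against WT cells, against WT and against Pax1-/- cells, without the chips in the fit, with chip as a random block, with chip series as a block and in series B alone. Directions stay the same, and the Cdh4 value against WT shrinks from -0.83 to -0.19.

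The last Pax9 copy was addressed on 1 chip, where Pax1-/-Pax9-/- and Pax1-/-Pax9+/- arrays lie side by side. limma called 0 of 10 members, beside 0.314% of all genes. At an unadjusted p under 0.05 were 3 members, beside 1121 of 13373 genes. The replicates of Pcdh8, Pcdh19 and Astn1 did not overlap, as held for 15.4% of all genes, and all 3 were higher in Pax1-/-Pax9-/- cells. The log2 fold changes were 0.65 ± 0.25 (SE, adjusted p = 0.441) for Pcdh8, 0.67 ± 0.17 (SE, adjusted p = 0.109) for Pcdh19 and 0.61 ± 0.18 (SE, adjusted p = 0.189) for Astn1. Without Pax1-/-Pax9+/- replicate B1, which had the highest Pcdh19 level of its group, Pcdh19 was called (0.87, adjusted p = 0.0324). Cdh4, at 0.11 ± 0.22 (SE, adjusted p = 0.991), and Alcam, at 0.12 ± 0.16 (SE, adjusted p = 0.964), overlapped.

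The difference between the steps, that is the change with the last Pax9 copy minus the change with the first, was tested as a contrast of its own. It was called for 0 of 10 members by limma, beside 0.209% of all genes. At an unadjusted p under 0.05 were 2 members, beside 1818 of 13373 genes. Those 2 were Cdh4, with a difference of 1.16 ± 0.36 (SE, adjusted p = 0.16) on the log2 scale, and Astn1, with 0.95 ± 0.30 (SE, adjusted p = 0.16). For Pcdh8 it was 0.47 ± 0.43 (SE, adjusted p = 0.665) and for Pcdh19 0.48 ± 0.28 (SE, adjusted p = 0.477), with 95% intervals of -0.42 to 1.36 and -0.11 to 1.07.

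Among the 62 other adhesion genes, 3 were called higher and 0 lower in Pax1-/-Pax9-/- against WT cells, beside 3.32% and 3.54% of all genes. Cdh8, a type II cadherin best known from the brain, had a mean log2 level of 8.26 ± 0.04 in Pax1-/-Pax9-/- cells (SD, n = 3), against 5.72 ± 0.93 in WT cells (SD, n = 5). No WT replicate, with a range of 4.42 to 6.95, came near the mutant range of 8.22 to 8.29. Its log2 fold change was 2.53 ± 0.50 (SE, adjusted p = 0.00447), and it was called with chip as a random block (2.67, adjusted p = 0.0111), with chip series as a block (2.45, adjusted p = 0.0205) and within series B (2.46, adjusted p = 0.000523). Cdh8 ranged from 5.73 to 6.23 in Pax1-/-Pax9+/- cells. In Pax1-/-Pax9-/- against Pax1-/-Pax9+/- cells it was not called, and 0 of the 62 genes were, beside 0.314% of all genes. The other 2 were Pcdh20 (0.71, adjusted p = 0.0136) and the large cadherin Fat4, a regulator of planar polarity (0.86, adjusted p = 0.0266), neither of which was called within series B (0.30, adjusted p = 0.683, and 0.59, adjusted p = 0.534).

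In Pax1-/-Pax9+/- against WT cells 1 of the 62 was called, beside 4.78% of all genes. This was Pcdh15 (0.62, adjusted p = 0.0192), and in series B alone it was 0.37 (adjusted p = 0.657). Against Pax1-/- cells 6 were called higher and 1 lower in Pax1-/-Pax9-/- cells, beside 4.48% and 5.14% of all genes. Fat4 (1.14), Cdh8 (2.19), Pcdh20 (0.70) and Astn2 (2.07) led, and Cdh8 was the one of these called within series B (1.83, adjusted p = 0.00077). Over Pax1-/- cells it was also called with chip as a random block (2.03, adjusted p = 0.0302) but not with chip series as a block (1.84, adjusted p = 0.0659). Among Pax1-/-Pax9+/- cells 4 were called higher and 1 lower, beside 3.87% and 4.27% of all genes. The integrin subunit Itgb1 (0.98), Fat4 (1.03), Pcdh15 (0.60) and Astn2 (2.18) led, none of them called within series B (adjusted p = 0.191 to 0.516). In Pax1-/- against WT cells 0 of the 62 were called, beside 0.247% of all genes. In Pax1+/- against WT cells 1 was called, beside 0.419% of all genes. The single call was Cdh1, the epithelial cadherin, at -2.47 (adjusted p = 0.0319), with levels of 4.66 to 5.43 in Pax1+/- cells, against 5.48 to 8.36 in WT cells. That call was lost within series A, at -2.53 (adjusted p = 0.0697).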

How the data were processed

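Sorted cells of E12.5 mouse vertebral columns were profiled on Illumina MouseWG-6 arrays (28 arrays, 45281 probes). The deposited table holds the non-normalized summary intensity and a detection p-value of each probe as the scanner software gave them to the authors. The authors' deposited log2 values, quantile normalized by them, served as an alternative, and in each array they ranked the probes as the intensities did (Spearman of at least 0.999998). The authors named no outlier arrays in the sources used here, so all arrays were kept.

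Intensities were corrected by normexp with an offset of 16, with negative controls inferred from the detection p-values (936 per array), quantile normalized and log2-transformed. The work used R 4.3.3 with limma 3.58.1, and statmod 1.5.0 for the random block. Probes detected at p under 0.05 on at least 3 arrays were kept (27688), those naming 1 gene (22486) were averaged per gene. Where a genotype and replicate name recurred on a second chip, the mean of both arrays was used, giving 24 replicates. Nothing in the labels says that a shared name marks 1 extract, and single arrays were therefore also fitted. limma's lmFit and eBayes compared the 3 EGFP(+) genotypes with EGFP(-) cells in 1 fit and the 5 EGFP(+) genotypes among themselves in another, and p-values were adjusted over 13373 genes. The script was tested on simulated data. Columns not used numbered 0.

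Gene names come from the platform annotation, in which 34885 probes have 1 gene, 18 several and 10378 none. The members and the lists of markers and other adhesion genes were chosen with earlier results of these data known. All 10 members are named in both fits, but not every member is given in every comparison. Of the other adhesion genes the text gives up to 4 called ones per comparison, those with the smallest adjusted p. Alternatives changed the floor, the scaling, the filter, the probe summary, the replicate unit, the chips, the replicate block, the weights and the tests that the methods name (Student's and one-way tests), and left out each replicate in turn.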

Additional observations from a re-analysis of the deposited data

Results flagged for a closer look

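Within each group of 5 replicates, the highest and the lowest value of each member were set against the rest by Dixon's ratio, in 30 groups, of which chance gives about 1 in 20. The ratio passed its limit in 2. Ncam1 in Pax1+/- replicate B2 had a log2 level of 6.40, with the nearest replicate at 6.83 and the highest at 6.95 (ratio 0.784). Itga6 in Pax1-/- replicate B1 had a log2 level of 6.89, with the nearest replicate at 5.97 and the lowest at 5.60 (ratio 0.715).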

How the results depend on the processing

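Of 2700 member values recomputed under other settings, 0 of the called ones changed direction, 121 lost their call and 19 gained one. Members called in Pax1-/-Pax9-/- against WT cells numbered 6, and 3 with signals floored at 1, with median centring or with each array as a sample, 2 with the authors' log2 values, with chip as a random block or with chip series as a block, 1 with the compared groups alone, and 0 within series B or by the methods' tests with adjusted p. In Pax1-/-Pax9+/- against WT cells they numbered 2, and 1 with median centring, the authors' log2 values or each array as a sample, and 0 in the 3 chip settings, with the compared groups alone or by the methods' tests with adjusted p. Against Pax1-/- cells the 3 calls of Pax1-/-Pax9-/- cells became 1 with chip series as a block and 0 within series B. The 1 call of Pax1-/-Pax9+/- cells became 2 with median centring and 0 with the brightest probe, with chip series as a block or within series B. In Pax1-/-Pax9-/- against Pax1-/-Pax9+/- cells 0 became 1 with array weights and 3 by the methods' tests without adjustment, and for the difference between the steps 0 became 1 with array weights. In Pax1-/- against WT cells 0 became 1 in series A alone. Against EGFP(-) cells, values within chip 3 gave 3 calls for WT (5 over all chips), 1 for Pax1+/- (6) and 3 for Pax1-/- (6), and chip 5 gave 2 for Pax1-/-.

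With 1 replicate left out, the counts of called members ranged from 5 to 6 (WT against EGFP(-)), 5 to 7 (Pax1+/- against EGFP(-)), 5 to 6 (Pax1-/- against EGFP(-)), 0 to 1 (Pax1+/- against WT), 0 to 0 (Pax1-/- against WT), 1 to 3 (Pax1-/-Pax9+/- against WT), 2 to 6 (Pax1-/-Pax9-/- against WT, lowest without Pax1-/-Pax9-/- replicate B3), 1 to 1 (Pax1-/-Pax9+/- against Pax1-/-), 2 to 3 (Pax1-/-Pax9-/- against Pax1-/-), 0 to 1 (Pax1-/-Pax9-/- against Pax1-/-Pax9+/-) and 0 to 0 (the steps). Replicate numbers recur across groups, and the labels do not say whether same-numbered samples share an origin. The deviations of 29 same-numbered pairs correlated at -0.185 to 0.145, with 1 over 0.1, which does not settle it. With the replicate block, 5 members were called in Pax1-/-Pax9-/- against WT cells (Pcdh8 was lost, adjusted p = 0.0661), and 5, 6, 6, 0, 0, 2, 1, 3, 0 and 0 in the others, as without it.

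Over all genes, counts of calls moved more. The 917 calls of Pax1-/-Pax9-/- against WT became 89 within series B and 1428 with the replicate block, and the 639 of Pax1-/-Pax9+/- against WT became 1 and 1217. Against Pax1-/- cells 1286 and 1089 became 108 and 1 within series B. The 2187, 2377 and 2164 calls against EGFP(-) cells became 1378, 1510 and 1348 with the authors' log2 values. The 56 of Pax1+/- against WT became 8 in series A alone, the 33 of Pax1-/- against WT ranged from 1 (floored) to 93 (chip as a fixed block), the 42 of Pax1-/-Pax9-/- against Pax1-/-Pax9+/- from 14 to 89, and the 28 of the steps from 1 (median centring) to 413 (array weights). The cause was not tested.

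Signal over background limits Pcdh19, the Cdh2 probes and Nrcam most. Within series B there are 2 WT and 3 Pax1-/- arrays beside the 6 compound mutant arrays, so a lost call there also reflects fewer arrays. Chip as a fixed block was not run for the compound mutants against WT or Pax1-/- cells, whose chips are separate. Arrays sharing a genotype and replicate name across chips correlated at 0.9477 to 0.9843, and in most pairs another array correlated better.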
